A study of Mus musculus with 5 samples.

Results

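The collagen genes were taken as every autosomal protein-coding mouse gene whose symbol has the form Col, a type number, the letter a and a chain number. That rule gave 42 of the 20807 autosomal protein-coding genes of the annotation, and they were split into 11 fibrillar collagens, 4 basement membrane collagens of type IV and 27 collagens of other types. H3K27me3, the trimethylated form of lysine 27 of histone H3, was measured at these genes by chromatin immunoprecipitation and sequencing (ChIP-seq) in dermal fibroblasts of WT mouse skin, with 2 libraries for E14.5 and another 2 for E18.5. The labels give these stages as E14 and E17, whereas the study's methods speak of E14.5 and E18.5 cells, and the latter names are used here. All 4 libraries came from WT cells that had been grown in culture in serum-containing medium, so the measurement describes expanded dermal cells and not intact skin, and nothing in the labels says whether the 2 libraries of a stage came from separate litters. The comparison of the stages addresses how the mark at the collagen genes differs between early dermal fibroblast progenitors (DFPs) and later fetal fibroblasts.

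Collagens are triple-helical proteins of the extracellular matrix. Dermal fibroblasts secrete types I, III, V and VI in bulk, cartilage is built on types II, IX and XI, and type IV forms the sheet of basement membranes. H3K27me3 is deposited by Polycomb repressive complex 2 and is found at the promoters of genes that are silent in a cell type. Promoters rich in CG dinucleotides are the usual sites of Polycomb recruitment in mammals.

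The promoters of 7 collagen genes are shown, chosen by the length covered by peaks, as a collagen of dermis, or after their values had been seen. Col2a1 and Col9a3 were also chosen by that length and Col1a1 as a collagen of dermis, but they had no matched promoter. Each promoter shown is the RefSeq window of GRCm38.p6 from 250 bases before to 50 bases after the annotated start, 5′ to 3′ on the gene's strand, with every CG dinucleotide in capitals. The first pair had peaks over all 300 bases in all 4 libraries. These are Col8a2, a network collagen, at chr4:126286544-126286843 on the plus strand with 32 CG, and Col13a1, a transmembrane collagen, at chr10:61979059-61979358 on the minus strand with 29 CG.
Col8a2: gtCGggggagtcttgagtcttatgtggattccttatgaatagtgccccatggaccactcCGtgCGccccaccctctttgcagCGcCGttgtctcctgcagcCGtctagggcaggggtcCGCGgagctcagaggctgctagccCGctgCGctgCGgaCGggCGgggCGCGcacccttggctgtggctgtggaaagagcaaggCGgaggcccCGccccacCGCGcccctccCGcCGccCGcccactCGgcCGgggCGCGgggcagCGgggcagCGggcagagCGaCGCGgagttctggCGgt
Col13a1: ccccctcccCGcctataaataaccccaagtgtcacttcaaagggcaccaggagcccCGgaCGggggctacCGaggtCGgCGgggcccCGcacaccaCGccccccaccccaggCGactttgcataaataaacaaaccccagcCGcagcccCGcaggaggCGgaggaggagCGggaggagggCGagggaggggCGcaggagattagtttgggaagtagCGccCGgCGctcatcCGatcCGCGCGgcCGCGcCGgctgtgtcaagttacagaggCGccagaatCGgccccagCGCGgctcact
The next pair belonged to genes that carried a peak in each E14.5 library but in no E18.5 library. The Col23a1 window itself lay under no peak. Col23a1, another transmembrane collagen, lies at chr11:51289670-51289969 on the plus strand with 24 CG, and Col6a6, a beaded filament collagen, at chr9:105828036-105828335 on the minus strand with 14 CG.
Col23a1: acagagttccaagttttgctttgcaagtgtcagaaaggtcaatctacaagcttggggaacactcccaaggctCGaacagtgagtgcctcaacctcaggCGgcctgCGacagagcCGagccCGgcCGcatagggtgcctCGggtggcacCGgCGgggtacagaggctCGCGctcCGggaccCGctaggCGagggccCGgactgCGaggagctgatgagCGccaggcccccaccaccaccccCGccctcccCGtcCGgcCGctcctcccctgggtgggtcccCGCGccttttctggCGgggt
Col6a6: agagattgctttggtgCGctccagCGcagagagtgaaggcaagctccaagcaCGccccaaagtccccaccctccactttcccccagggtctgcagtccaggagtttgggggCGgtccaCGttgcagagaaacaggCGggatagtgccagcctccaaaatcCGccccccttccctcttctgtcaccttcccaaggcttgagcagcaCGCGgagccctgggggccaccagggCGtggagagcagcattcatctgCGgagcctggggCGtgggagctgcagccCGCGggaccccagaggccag
Col3a1, which encodes a fibrillar collagen of dermis, lies at chr1:45311288-45311587 on the plus strand and held 0 CG in this window, with no peak in any library.
Col3a1: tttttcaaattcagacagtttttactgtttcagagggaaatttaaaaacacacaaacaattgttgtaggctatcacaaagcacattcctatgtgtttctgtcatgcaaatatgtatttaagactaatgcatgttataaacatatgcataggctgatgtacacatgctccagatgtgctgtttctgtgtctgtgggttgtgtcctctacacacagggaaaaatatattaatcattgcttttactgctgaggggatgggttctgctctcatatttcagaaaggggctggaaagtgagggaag
The last pair was added after its values had been seen, because both are type IV genes that share a promoter region with a partner on the opposite strand. Col4a4 at chr1:82586800-82587099 on the minus strand held 14 CG and was overlapped by a peak over 300, 300, 122 and 300 bases in the 4 libraries, whereas Col4a1 at chr8:11312777-11313076 on the minus strand held 37 CG and lay under none.
Col4a4: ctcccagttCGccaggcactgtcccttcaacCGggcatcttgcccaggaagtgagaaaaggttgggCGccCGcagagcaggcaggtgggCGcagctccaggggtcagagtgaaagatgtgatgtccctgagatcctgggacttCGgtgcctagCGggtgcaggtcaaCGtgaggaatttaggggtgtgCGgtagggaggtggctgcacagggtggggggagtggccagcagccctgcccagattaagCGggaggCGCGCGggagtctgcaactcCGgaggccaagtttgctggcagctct
Col4a1: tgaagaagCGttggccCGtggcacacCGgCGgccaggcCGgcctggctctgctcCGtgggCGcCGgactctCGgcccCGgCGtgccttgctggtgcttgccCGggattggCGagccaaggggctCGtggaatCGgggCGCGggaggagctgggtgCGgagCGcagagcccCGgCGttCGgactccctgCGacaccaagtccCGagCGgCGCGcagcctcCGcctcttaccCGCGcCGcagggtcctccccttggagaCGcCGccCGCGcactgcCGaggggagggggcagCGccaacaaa

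The deposited values are broad peaks, stretches of enriched reads that the authors called in each library separately. Here a marked gene is one with a peak of each library of the stage in question within 3000 bp of any of its annotated start sites. The lists held 21546 and 16574 peaks at E14.5, against 10429 and 7107 at E18.5, and they covered between 14.3 and 52.8 Mb of the genome. The number of reads behind each list is unknown, since the lists carry no counts. The share of all autosomal protein-coding genes with a peak was also lower in the shorter lists, and the counts over the whole family are therefore set beside that share. Counts within classes and subgroups rest on few genes and are descriptions, to be read against the same shares. In bulk chromatin, fewer cells carrying the mark and less mark per cell cannot be told apart. Of 10 dermal fibroblast markers (Pdgfra, Pdgfrb, Twist2, Prrx1, Dpt, Lum, Dcn, Thy1, Vim and Fn1), 0 had a peak in any library. A peak in both E14.5 libraries was found at 3 of 6 keratinocyte, 1 of 4 melanocyte and 1 of 4 endothelial markers. The same held for 3 of 4 muscle, 4 of 4 neural, 2 of 4 immune and 4 of 4 chondrocyte markers. In both E18.5 libraries the counts were 3, 1, 1, 2, 3, 0 and 2 in the same order. Over all genes, 20.2% were marked at E14.5, 12.7% were marked at E18.5 and 73.4% had no peak in any library.

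At E14.5, 21 of the 42 collagen genes (50%) were marked, against 20.2% of all genes. At E18.5, 15 collagen genes (35.7%) were marked, against 12.7% of all genes, and all 15 were already among the 21. No collagen gene was marked at E18.5 alone. A total of 20 collagen genes (47.6%) lacked a peak near their start sites in every library, against 73.4% of all genes. Of the 21 genes marked at E14.5, 5 (23.8%) had no peak in either E18.5 library, against 23.4% of all genes marked at E14.5. The collagen genes were thus marked more often than the background at both stages, while the share that went without a peak at E18.5 was near the background.

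Collagen genes are long and have many annotated starts, which widens the region searched. Their median length was 110850 bp, against 17629 bp over all genes, with a median of 4 start sites against 3 and a median searched window of 18015.5 bp against 9142 bp. When the outermost start alone was used, so that each gene had a window of the same size, 42.9% of collagen genes were marked at E14.5, against 18.4% of all genes. The corresponding shares at E18.5 were 33.3% and 11.6%. Within the family, the marked and the unmarked genes had like windows, with medians of 18787 bp for the 21 genes marked at E14.5, and 18003 bp for the 20 without a peak. The marked genes were longer, with a median length of 120988 bp against 64746.5 bp.

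**Figure D1:**
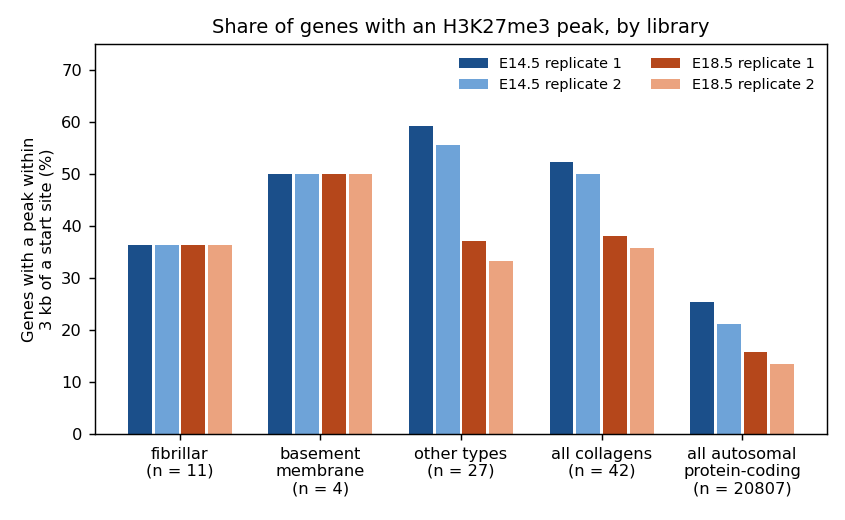
Share of genes (%) with an H3K27me3 peak within 3 kb of a start site in each of the 4 libraries, for the fibrillar, basement membrane and other collagens, all 42 collagens and all 20807 autosomal protein-coding genes. Bars are single libraries. The fibrillar and basement membrane shares are the same in every library, and the shares of the other types, of all collagens (52.4, 50, 38.1 and 35.7%) and of all genes (25.3, 21.1, 15.8 and 13.4%) are lower in the E18.5 libraries.

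Among the 11 fibrillar collagens, 4 were marked and 7 were not, and the split was the same in all 4 libraries. The marked genes were Col2a1, Col11a1 and Col11a2, whose products form the fibrils of cartilage, and Col27a1, a minor fibrillar chain also known from cartilage. The unmarked genes were Col1a1, Col1a2, Col3a1, Col5a1 and Col5a2, which encode the chains of dermal fibrils, together with Col5a3 and Col24a1. In the full lists no fibrillar collagen gained or went without its peak between the stages. With stricter limits some did. Col11a1 had no E18.5 peak at −log10 q of at least 3, nor had Col11a2 and Col27a1 at −log10 q of at least 5.

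Col2a1 encodes the chain of type II collagen, the main collagen of cartilage, and carried the longest covered length of any collagen gene. Peaks near its starts covered 11153 and 10309 bp at E14.5, against 9666 and 8398 bp at E18.5. A single peak of 15732 bp, at chr15:97996543-98012274, spanned 7 of its 9 annotated starts in E14.5 replicate 1, and the peak of E18.5 replicate 2 at chr15:97998446-98006843 was 8398 bp wide. Both E18.5 values were below both E14.5 values. Of the mean E14.5 length 84.2% remained, the highest proportion among the collagen genes with a peak in all 4 libraries. That proportion counts only bases within 3000 bp of a start. The main E14.5 peaks, 15732 and 12145 bp wide, ran beyond this limit, whereas the E18.5 peaks of 9666 and 8398 bp lay inside it. By full peak width, Col2a1 kept less than this proportion. Its strongest peak ranked at the 98.4th and 98.0th percentile of fold enrichment within the E14.5 lists and at the 97.5th and 96.7th within the E18.5 lists, so that Col2a1 was among the strongest peaks of each list. Percentiles give a peak's place within its own list, and since the lists differ in length they have no common scale across libraries.

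The chains of type XI collagen and Col27a1 had shorter peaks. Col11a1 was covered over 2628 and 2804 bp at E14.5 and over 1575 and 1374 bp at E18.5. Col11a2 was covered over 4303 and 3698 bp at E14.5 and over 3121 and 784 bp at E18.5. Col27a1 was covered over 2886 and 2703 bp at E14.5 and over 2045 and 659 bp at E18.5. For each of these genes both E18.5 libraries were below both E14.5 libraries, and for Col11a2 and Col27a1 the E18.5 libraries differed from each other by more than the E14.5 libraries did. Col11a1 held the weakest peak of the 4 genes, at percentiles of 45.9 and 61.7 at E14.5, against 22.3 and 33.5 at E18.5. The percentiles of Col11a2 were 90.6 and 91.1 at E14.5 and 67.1 and 51.2 in the E18.5 lists, and those of Col27a1 were 91.2 and 90.1, then 71.9 and 73.8.

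The type IV genes lie in head-to-head pairs, and the autosomal pairs differed. Col4a1 and Col4a2, the chains of nearly all basement membranes, have starts 21 bp apart on chromosome 8 and had no peak near a start in any library. The nearest peak of any library lay 95.6 kb from a Col4a1 start and 33.5 kb from a Col4a2 start. Col4a3 and Col4a4 encode chains of specialised basement membranes such as that of the kidney glomerulus. Their starts lie 72 bp apart on chromosome 1, and they shared 1 peak at the common promoter region in every library. In E18.5 replicate 1 that peak covered no start of either gene. That shared peak is 1 measurement and not an independent value for each gene.

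The shared peak was 1690 bp wide in E14.5 replicate 1 (chr1:82586084-82587773) and 2532 bp wide in E14.5 replicate 2 (chr1:82585695-82588226). It was 307 bp wide in E18.5 replicate 1 (chr1:82586978-82587284) and 704 bp wide in E18.5 replicate 2 (chr1:82586507-82587210). Its percentile was 86.1 and 85.0 at E14.5, against 7.31 and 24.8 at E18.5, and in E18.5 replicate 1 it was the lowest of the 15 collagen genes with a peak in all 4 libraries. Including a separate peak near an internal start at the 3′ end of Col4a3, which was 9565 bp wide in E14.5 replicate 1, the covered length near Col4a3 starts was 5968 and 3675 bp at E14.5, against 644 and 704 bp at E18.5. The proportion of this length near starts that remained, 13.98%, was the smallest among the collagen genes with a peak in all 4 libraries. It leaves out E18.5 peaks inside Col4a3 near its 3′ end, more than 3000 bp from any start. These were 1690 bp wide in replicate 1 and 850 bp wide in replicate 2. Inside the whole gene, peaks covered 11283 and 6204 bp at E14.5, against 2334 and 1140 bp at E18.5.

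The other 27 collagens held 15 genes marked at E14.5, against 9 marked at E18.5. In the full lists all 5 genes without a peak at E18.5 belonged to them. At −log10 q of at least 3, Col4a3, Col4a4 and Col11a1 were among the genes without one. The other types are described by structural subgroup. The fibril-associated collagens with interrupted triple helices (FACITs), which decorate the surface of fibrils, were marked in 5 of 9 genes at E14.5 and in 3 at E18.5. Those marked at E14.5 were Col9a1, Col9a2, Col9a3, Col14a1 and Col19a1, and those without a peak near a start were Col12a1, Col16a1, Col20a1 and Col22a1.

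Type IX collagen is made of 3 chains and coats cartilage fibrils. Col9a2 was covered over 4045 and 3818 bp at E14.5 and over 1612 and 2421 bp at E18.5. Col9a3 was covered over 1299 and 1075 bp at E14.5 and had no peak at E18.5. Col9a1 had short peaks of 333 and 641 bp at E14.5 and none at E18.5, and the peaks of the E14.5 libraries did not overlap each other, one lying upstream of the outermost start and the other near an internal start more than 17 kb downstream. Col9a1 was the only one of the 21 collagen genes marked at E14.5 whose 2 libraries placed their peaks apart, and its percentiles of 10.1 and 4.56 were the lowest of those genes in both libraries. With Col2a1, Col11a1 and Col11a2, the type IX genes made up 6 cartilage collagens that were all marked at E14.5. Col10a1, the collagen of hypertrophic cartilage, had no peak, and its nearest peak in any library lay 112.4 kb away. These 7 genes were grouped after their values had been seen.

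Col14a1, a FACIT of dermal fibrils, was the exception among the 10 collagens listed as known from dermis. Its peaks covered 3334 and 2694 bp at E14.5, against 1804 and 1244 bp at E18.5. The percentile of its strongest peak was 94.2 and 73.5 at E14.5, against 77.5 and 80.7 at E18.5, so that the stages overlapped in rank although they did not in length. Col19a1, a FACIT known from muscle and the nervous system, was covered over 6062 and 5280 bp at E14.5 and over 2871 and 2149 bp at E18.5. Its percentiles of 85.7 and 76.3 at E14.5 and of 89.8 and 40.6 at E18.5 overlapped as well.

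Type VI collagen forms beaded filaments around cells, and its 6 genes separated by chain. Col6a1, Col6a2 and Col6a3, the chains of the common heterotrimer, had no peak in any library. Col6a4, Col6a5 and Col6a6, alternative chains encoded in tandem on chromosome 9, were all marked at E14.5, and Col6a5 alone was marked at E18.5.

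Col6a5 was covered over 2589 and 1952 bp at E14.5 and over 667 and 204 bp at E18.5, all of the E18.5 length lying upstream of its start. The E18.5 peaks of the 2 libraries did not overlap each other, and Col6a5 was the only one of 15 collagen genes marked at E18.5 for which this was so. Col6a6 was covered over 789 and 297 bp at E14.5 and had no peak at E18.5. Col6a4 had 262 and 247 bp at E14.5, near an internal start about 98 kb downstream of its outermost start, and none at E18.5. The chains without an E18.5 peak were thus the ones with the shortest covered lengths at E14.5.

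Of the network-forming collagens, Col8a2, a component of the membrane under the corneal endothelium, was marked, while Col8a1 and Col10a1 were not. Col8a2 was covered over 7339 and 6180 bp at E14.5 and over 2444 and 3173 bp at E18.5. Its percentile was 96.9 and 93.5 at E14.5, against 95.5 and 97.5 at E18.5, so the stages overlapped in percentile and not in covered length. Its strongest peak covered the whole promoter shown above in every library.

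The transmembrane collagens were marked in 3 of 4 genes at E14.5 and in 2 at E18.5. Col13a1, found at cell adhesion sites and the neuromuscular junction, was covered over 7697 and 5664 bp at E14.5 and over 4878 and 4609 bp at E18.5. A second Col13a1 peak lay inside the gene, 41166 to 43717 bp downstream of its outermost start in E14.5 replicate 1 (chr10:61935391-61937942), and it recurred in all 4 libraries with widths of 2552, 1634, 2339 and 2014 bp. Unlike the promoter peak, this internal peak did not separate the stages by width.

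Col25a1, a neuronal transmembrane collagen, was covered over 1117 and 1247 bp at E14.5 and over 451 and 759 bp at E18.5, near an internal start. Col23a1 was covered over 1060 and 322 bp at E14.5 and had no peak at E18.5, and its E14.5 peaks lay downstream of the promoter shown above. Col17a1, the hemidesmosomal collagen of keratinocytes, had a peak of 372 bp in E14.5 replicate 1 and none in the other 3 libraries, so it counted as marked at neither stage.

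The multiplexins Col15a1 and Col18a1 are collagens of the basement membrane zone. Col15a1 was covered over 4141 and 3949 bp at E14.5 and over 3588 and 1747 bp at E18.5, and its peak also covered the start of the neighbouring annotated gene Gm12426 in 3 of the 4 libraries, while the E18.5 replicate 2 peaks covered no start. Col18a1 was covered over 832 and 801 bp at E14.5, over 712 bp in E18.5 replicate 1 and over 0 bp in E18.5 replicate 2. It is the one gene marked at E14.5 whose E18.5 libraries disagreed. Of the remaining genes, Col26a1 was covered over 4159 and 3767 bp at E14.5 and over 3186 and 2287 bp at E18.5, while Col28a1 and the anchoring fibril collagen Col7a1 had no peak.

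**Figure D2:**
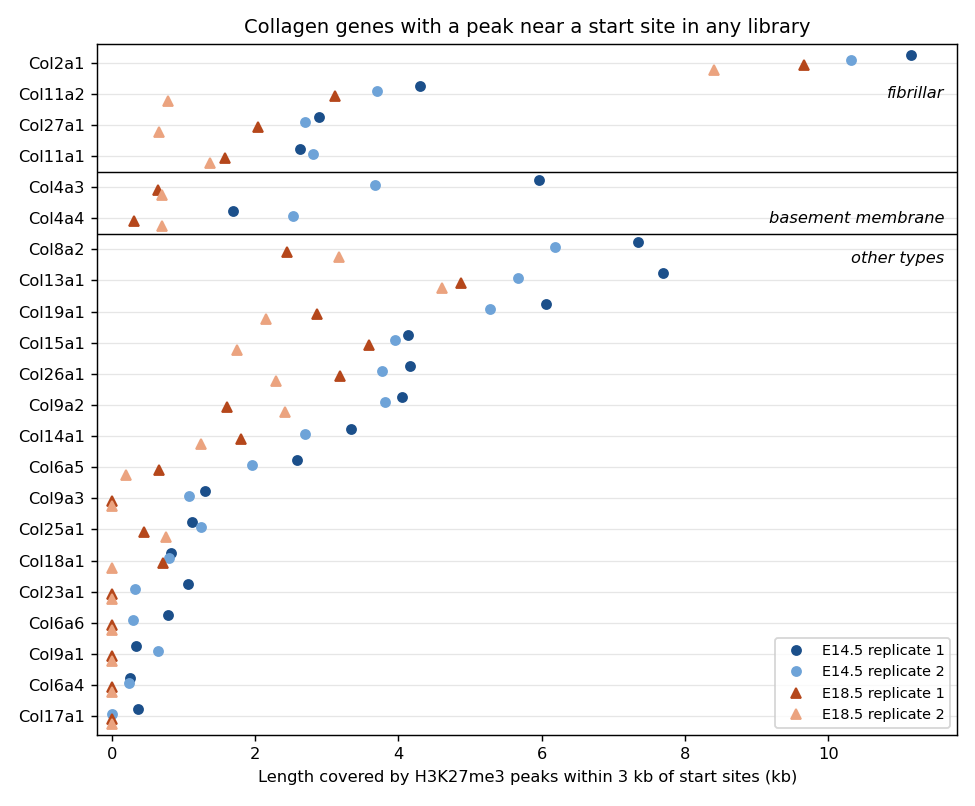
Length (kb) covered by H3K27me3 peaks within 3 kb of annotated start sites for the 22 collagen genes with a peak in any library, grouped by class. Each point is 1 library, circles for E14.5 and triangles for E18.5. For 21 of the 22 genes both triangles lie left of both circles, and the exception is Col17a1.

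**Figure D3:**
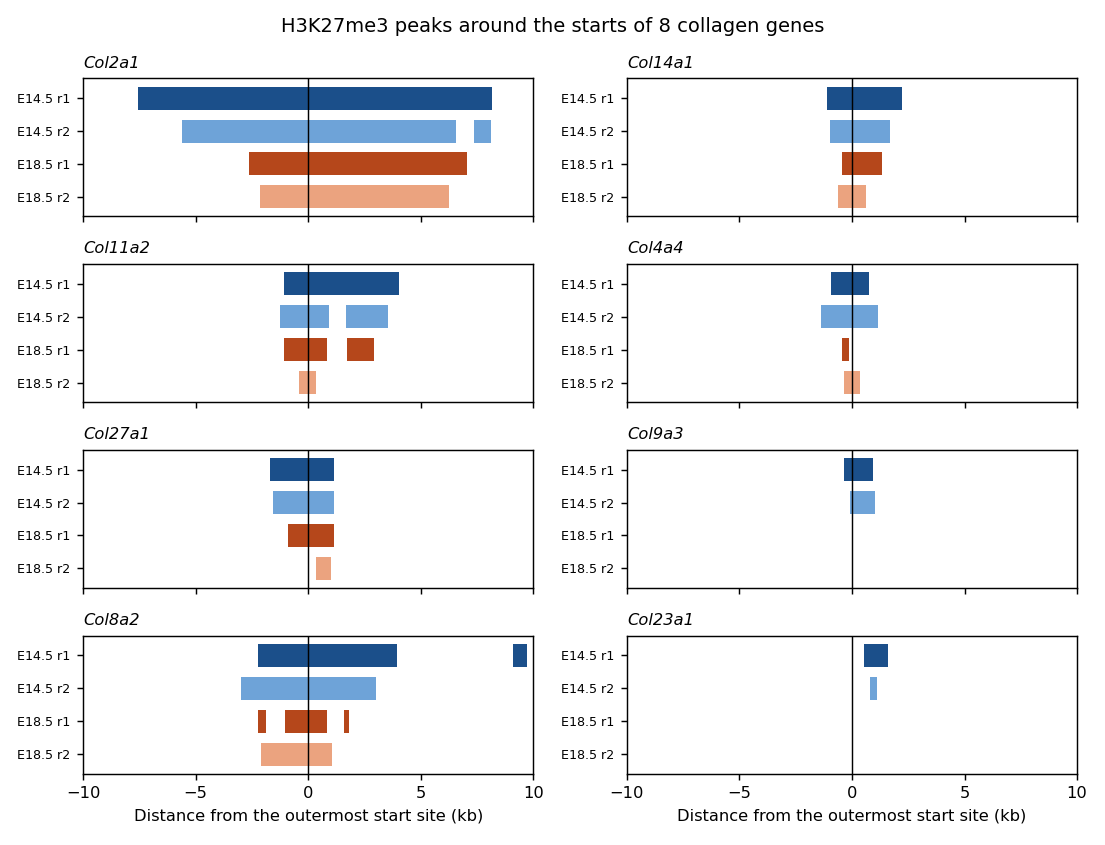
Peaks of each library drawn to scale by distance (kb) from the outermost annotated start of 8 collagen genes, with transcription running to the right and r1 and r2 for the replicates. The Col2a1 peak stays broad in all 4 libraries, the Col4a4 peak is narrower at E18.5, and Col9a3 and Col23a1 have no E18.5 peak.

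Col1a1, Col1a2, Col3a1, Col5a1, Col5a2, Col6a1, Col6a2, Col6a3 and Col12a1, which make 9 of the 10 collagens listed as known from dermis, had no peak near a start in any library. Over all genes that share was 73.4%, so this count was not far from the background. Col1a1 and Col1a2, the chains of type I collagen, had their nearest peak of any library 100.7 kb and 60.4 kb from a start. Col3a1 and Col5a2 lie next to each other on chromosome 1, and their nearest peaks lay 583.9 and 420.5 kb away. The absence of a peak was not specific to E18.5, since it held at both stages.

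For the type VI chains the surroundings differed by stage. The nearest peak to a Col6a1 start lay 12.6 and 11.4 kb away at E14.5, and 439.2 and 765.6 kb away at E18.5. For Col6a3 the distances were 75.5 and 83.6 kb at E14.5, against 499.2 and 499.1 kb at E18.5. The distance for Col5a1 was 80.5, 81.3 and 81.6 kb in the first 3 libraries and 603.2 kb in E18.5 replicate 2, and for Col12a1 it was 81.3 and 81.8 kb at E14.5, against 1215.7 and 85.6 kb at E18.5. The E18.5 lists held fewer peaks, and the part of list length in these distances was not tested.

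Covered length near start sites was lower in each E18.5 library than in either E14.5 library for 21 of the 22 collagen genes with any peak, against 63.7% of all genes with any peak, and higher for 0, against 0.688%. A gene with a peak in 1 E14.5 library alone cannot meet this requirement. Among genes marked at E14.5, all 21 collagen genes were lower, against 83.9% of all such genes. Among the 15 collagen genes with a peak in all 4 libraries, the median proportion of E14.5 length that remained at E18.5 was 50.6%, with a range from 13.98 to 84.2%, against a median of 62.7% over 2613 genes.

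Summed over the family, peaks near start sites covered 72.4 and 61.1 kb at E14.5, against 39.3 and 30.5 kb at E18.5. The means were 66.7 ± 7.95 kb and 34.9 ± 6.19 kb (SD, n = 2 each), which is 47.7% less at E18.5. An exact two-sided permutation test over libraries gave p = 0.33, and 2 libraries against 2 allow no smaller value. The decrease over all genes was 46.1%. By class, the decrease was 31.8% for the fibrillar collagens, 86.0% for the basement membrane collagens and 51.1% for the others. The fibrillar sums were 21.0 and 19.5 kb at E14.5, against 16.4 and 11.2 kb at E18.5. Col2a1 alone gave 11153 and 10309 bp, then 9666 and 8398 bp, and its E14.5 peaks were cut at the 3000 bp limit. In Col11a1, Col11a2 and Col27a1, 54.3, 48.8 and 48.4% of the E14.5 length remained. The basement membrane value joins the peak shared by Col4a3 and Col4a4 with the separate peak near the internal Col4a3 start. It leaves out the E18.5 peaks of Col4a3 that lay more than 3000 bp from that start. The collagen genes as a set therefore lost covered length about as all genes did. Whether the difference between the stages reflects the mark or the length of the lists cannot be told apart in peak calls.

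The size of the decrease changed with how the lists were equalised. When every list was cut to its strongest peaks until each covered the 14.3 Mb of the shortest, the summed decrease was 14.6%, and the marked collagen genes numbered 6 at E14.5, against 12 (28.6%) at E18.5. The count over all genes turned in the same way, with 5.97% marked at E14.5, against 10.4% at E18.5. Under that setting 0 collagen genes were marked at E14.5 and without a peak at E18.5, against 5 in the full lists. When the lists were instead cut to an equal number of 7107 peaks, the summed decrease was 43.7%, the marked collagen genes numbered 16 at E14.5 against 12 at E18.5, and the count without a peak at E18.5 was 1.

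The rank of each peak within its own list was also compared. The strongest peak near a start ranked lower in each E18.5 library than in either E14.5 library for 12 of the 15 collagen genes with a peak in all 4 libraries (80%), against 73.1% of all such genes. The exceptions were Col8a2, Col14a1 and Col19a1. The median percentile of the 15 genes was 91.2 and 89.9 at E14.5, against 73.8 and 51.2 at E18.5. Over all 2613 genes it was 93.3, 90.8, 84.3 and 74.9 in the same order. The median over all genes was lower in the E18.5 lists as well, the share of collagen genes with a lower rank was close to the background, and no change in the mark is read from these places in lists of unlike length.

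**Figure D4:**
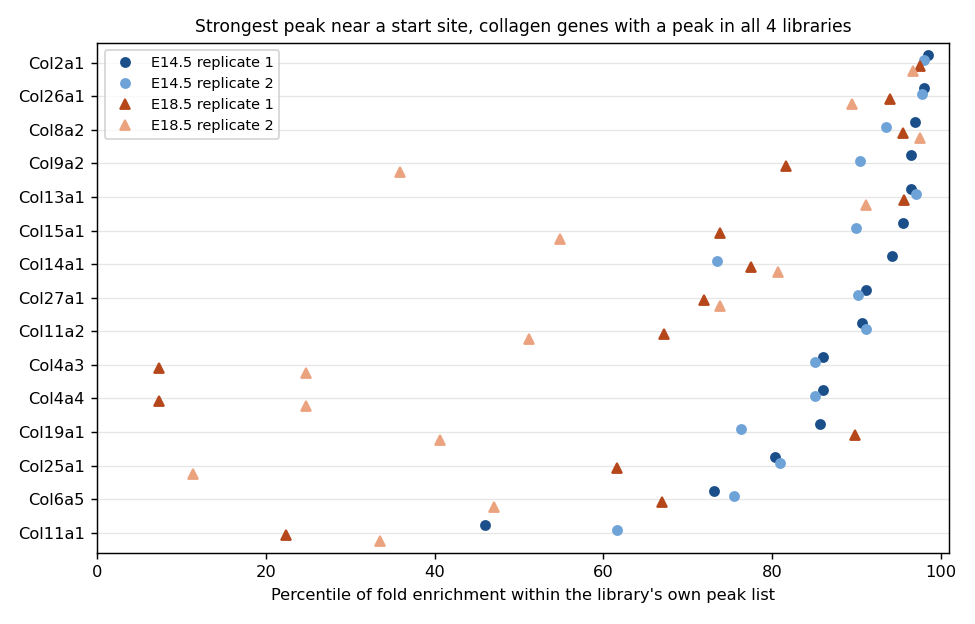
Percentile of fold enrichment, within each library's own list, of the strongest peak near a start site for the 15 collagen genes with a peak in all 4 libraries. Circles are E14.5 and triangles E18.5 libraries. Col2a1, Col8a2 and Col13a1 stay above 90 in every library, and Col4a3 and Col4a4 share the low values of 7.31 and 24.8 at E18.5.

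For gene bodies the region searched was the whole gene, with a median of 110850 bp for collagens against 17629 bp over all genes. No share matched for gene length was computed. A peak inside the gene was present in both E14.5 libraries for 19 collagen genes (45.2%), against 19.2% of all genes, and in both E18.5 libraries for 13 (31%), against 12.5%. Peaks inside collagen genes covered 64.4 and 46.2 kb at E14.5, then 28.6 and 21.9 kb at E18.5, which is 54.3% less (two-sided exact permutation p = 0.33), against 53.4% less over all genes. The decrease in gene bodies was 7.81% with lists of equal covered length and 44.0% with lists of equal number. Col22a1, a FACIT of tissue junctions, was the one gene whose only peak lay in its body, with 1008 bp in E14.5 replicate 1.

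The promoter table matched 33 of the 42 collagen genes, and Col1a1, Col2a1, Col4a3, Col5a2, Col9a3, Col12a1, Col14a1, Col22a1 and Col26a1 were not matched. CG dinucleotides, which read the same on either strand, were counted in each window of 300 bases, and 94.8% of the autosomal windows in the table held at least 1. The median was 15 over the 16 matched genes marked at E14.5, and 16 over the 11 with a peak in all 4 libraries. It was 9.5 over the 4 matched genes without a peak at E18.5, 12 over the 16 genes without any peak, and 8 over all 25748 autosomal genes of the table. The unmarked genes ranged from 0 CG in Col3a1 and Col28a1 to 37 in Col4a1, with 33 in Col4a2 and 34 in Col5a1, and the marked genes from 1 in Col9a1 to 32 in Col8a2. The ranges overlapped, and many CG dinucleotides were present in genes with and without a peak. Marked refers here to the gene, and the counted window did not always lie under its peak. The windows of Col6a4, Col18a1, Col23a1 and Col25a1 lay under no peak in any library. That of Col27a1 was overlapped over at most 8 bases.

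The genes that make, process and bind collagen were counted in the same way. Over 6 lists of 73 genes found in the annotation, 12 were marked at E14.5, 10 at E18.5 and 58 had no peak in any library, beside the shares of 20.2, 12.7 and 73.4% over all genes. These counts were near the background. Among 17 genes of collagen modification and folding, Colgalt2, a collagen galactosyltransferase, had a peak in all 4 libraries. Plod2, the lysyl hydroxylase of the collagen telopeptides, had peaks of 696 and 286 bp at E18.5 and none at E14.5, and was the one gene of these lists with a peak at E18.5 only. Its percentiles of 32.5 and 13.0 were low in both lists.

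Among 13 genes of procollagen processing and crosslinking, Tll2, of the tolloid family, and Pcolce2, a procollagen C-proteinase enhancer, had peaks in all 4 libraries. Of 12 small leucine-rich proteoglycans, Chad, a cartilage matrix protein, and Podn were marked at E14.5 and had no peak at E18.5. Of 10 collagen receptors, Itga2 had a peak in all 4 libraries and Itga11 in E14.5 replicate 1 alone. Mmp9, a gelatinase, was the only one of 6 collagenases and gelatinases with a peak, over 12789 and 10229 bp at E14.5, against 7039 and 6029 bp at E18.5. Mmp1a, a seventh gene of that list, was not matched in the annotation.

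Partners of type IV collagen in basement membranes formed the last list, which held 15 genes. Lama1, Lama5 and Lamc3, which encode laminin chains, had peaks in all 4 libraries, Lama3 in 3 libraries, and Nid2 in E14.5 replicate 2 alone. Cartilage genes outside the collagen family also carried peaks. Acan and Comp, the proteoglycan and glycoprotein of cartilage matrix, had peaks in all 4 libraries, Matn1 had peaks at E14.5 alone, and Sox9, the regulator of chondrocyte fate, had peaks over 2012 and 1151 bp at E14.5, 176 bp in E18.5 replicate 1 and 0 bp in E18.5 replicate 2.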

How the data were processed

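H3K27me3 ChIP-seq of WT dermal fibroblasts was analysed in 4 libraries, 2 labelled E14 and 2 labelled E17. An input library carried no peak list and was not analysed here. Per the submitters' processing notes the build was mm10 and the tools were Bowtie2 2.3.5.1, SAMtools 1.9, MACS2 2.2.7.1 and deepTools 3.5.1. Per the study's methods, broad peaks were called at a q-value of 0.01. The control used for that call is not given in the sources used here, nor is it clear whether the subsampling described for E18.5 reads covered these lists. The labels name sonication and an Ion Torrent library kit, whereas the methods name enzymatic digestion and another kit. The deposited peak lists hold, for each peak, a display score, the fold enrichment over background, and −log10 p and −log10 q values, all as the authors' caller wrote them. No read counts were given, so the depth is unknown and no interval could be made.

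Gene models were GENCODE vM21 on GRCm38, the assembly of mm10. A peak was assigned to a gene when it overlapped, by at least 1 bp, the 3000 bp on either side of any annotated start. Covered length was the union of peaks in those windows, and the percentile of a peak was that of its fold enrichment within its own list. Promoters came from RefSeq on GRCm38.p6. Counts of genes carry no test, and summed lengths were compared by an exact permutation test over libraries in Python 3.11.15 with numpy 2.4.6 and scipy 1.17.1. The assignment was checked on simulated data, where 100% of 1000 genes with planted peaks were recovered. Those peaks were narrower than the window and began at the outermost start of genes distant from others. Peaks at internal starts, at shared promoter regions or wider than the window were not checked.

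The members, gene lists and comparisons were chosen with earlier results of these data known. Every collagen gene is accounted for, those with a peak by their values. Distances are given for collagens known from dermis and some others. Promoter sequences are given, where matched, for the longest kept and longest absent marks and for Col1a1 and Col3a1, and for 2 genes added later. Col2a1 and Col9a3, with the longest kept and the longest absent mark, were not matched. Genes of the pathway lists are named where they had a peak in any library, except for an item that is not reported here. The alternatives were other windows, the outermost start alone, a 500 bp overlap, stricter q and width limits, lists of equal number or equal covered length, leaving out each library, a replicate block and, added after seeing the data, overlap between replicates.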

Additional observations from a re-analysis of the deposited data

How the results depend on the processing

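Of 230 values recomputed under alternatives, 30 counts moved by more than 1.5 times. The other 200 were counts within that bound or summed decreases, which kept their direction and are given below where they moved further. With the outermost start alone, 3 genes went without a peak at E18.5 instead of 5, all 3 of other types, and with an overlap of 500 bp 1 did, also of another type. At −log10 q of at least 3, those without a peak at E18.5 were 1 fibrillar, 2 basement membrane and 3 other genes. At −log10 q of at least 5, 13 collagen genes had a peak in both E14.5 lists and 4 in both E18.5 lists, 4 had a body peak at E18.5, 12 had less covered length at E18.5, and 2 fibrillar, 2 basement membrane and 3 other genes went without a peak. Among the other types 8 were then marked at E14.5 and 18 had no peak. With peaks of at least 1000 bp, 9 genes were marked at E18.5, and 2 basement membrane and 3 other genes went without a peak. With lists of equal number, 1 gene, of another type, went without a peak. With equal covered length, 6 were marked at E14.5 (1 fibrillar, 0 basement membrane, 5 other), 6 had a body peak at E14.5, 0 went without a peak, also 0 of the other types, 4 had less covered length, 18 other genes had no peak, and the decrease was 14.6% near starts and 7.81% in bodies. Leaving out 1 library at a time gave 21 to 22 genes marked at E14.5, 15 to 16 at E18.5, 5 to 6 without a peak at E18.5, and a decrease of 41.2 to 54.3%, or 45.2 to 60.8% in bodies. Without E14.5 replicate 2 the added gene was Col17a1, and without E18.5 replicate 1 it was Col18a1. With a replicate block the decreases were 47.9% near starts and 54.0% in bodies. The labels do not say that the numbers pair the libraries, and same-numbered libraries deviated with r = 0.159 over 5525 genes, which are not independent. Requiring the peaks of the 2 replicates to overlap removed Col9a1 at E14.5 and Col6a5 at E18.5, an alternative chosen after seeing the data. With 2 libraries a stage the exact permutation test used here could not go below 0.33, and without read counts a missing peak does not show that the mark is absent.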

Other observations

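The X-linked type IV genes Col4a5 and Col4a6 were left out of the counts above. They share a head-to-head promoter region, and peaks covered 654 bp near the starts of each in E14.5 replicate 2 and 0 bp in the other 3 libraries. Inside Col4a6, 6 peaks covered 3962 bp in E14.5 replicate 2 and no peak was present in the others. Inside Col4a5 there was 1 peak of 290 bp, in E14.5 replicate 1. The X chromosome as a whole held 179 and 1035 peaks in the E14.5 libraries and 69 and 58 in the E18.5 libraries, so E14.5 replicate 2 stood apart there. The part that this played in the Col4a5 and Col4a6 values was not tested.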
